A study of Mus musculus with 23 samples.

Results

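A set of 184 isolated binding sites of p65 (RelA), a DNA-binding subunit of the transcription factor NF-κB, was examined in mouse macrophages. The sites were chosen from the 30021 p65 ChIP-seq peaks of wild type macrophages treated for 1 h with Kdo2-Lipid A (KLA), an agonist of the receptor TLR4. A peak was taken if its height was from 50 to below 100 tags per 10000000 tags of the library and no other peak of that list was centred within 100000 bp. Peaks on chrM, chrY and unplaced sequence were left out, which kept 30006 peaks. These 184 sites are 2.40% of the 7682 peaks in that height range and 0.613% of the 30006. Peaks of any height with no other centre within 100000 bp numbered 1060, or 3.53%. Height and spacing in this library made the choice, so both are given only as a description.

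The wild type cells were thioglycollate-elicited peritoneal macrophages from male C57BL/6 mice aged 6 to 8 weeks, with floxed NCoR alleles and no Lys M-Cre. The sites were set beside 4 other peak lists. These were p65 after the same 1 h of KLA (100 ng/ml) in macrophages whose floxed NCoR alleles were combined with Lys M-Cre +/-, p65 in untreated macrophages of both genotypes, and biotin-tagged LXRβ. The LXRβ list came from the RAW264.7 macrophage line, a stable BirA/BLRP-LXRβ line treated for 2 h with 1 µM GW3965, an LXR agonist. Lys M-Cre is active in myeloid cells. Peak lists hold no measure of NCoR or of cell type markers, so neither the genotype nor the cell type could be checked. How many mice gave each library is not stated in the labels. Each group was 1 library, so differences between libraries have no replicates behind them and were not tested, and the intervals given cover only counting error.

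NF-κB dimers containing p65 are held in the cytoplasm by inhibitors of the IκB family. Signals from TLR4 lead to loss of these inhibitors, and p65 then enters the nucleus and binds promoters and distal enhancers, many of them already open through macrophage factors such as PU.1. NCoR is a corepressor that carries histone deacetylase activity to LXRs and other factors, and LXRs activate genes of cholesterol efflux and lipid synthesis when bound by oxysterols or synthetic agonists. Positions are on build mm9. No genome sequence or gene annotation of that build was used here, so sites go by their positions, without gene names or sequences.

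The wild type KLA library held 2120392 tags and the knockout KLA library 1673506, so 1 tag was worth 4.72 and 5.98 units of height. The untreated libraries held 777228 (wild type) and 786121 tags (knockout), with 1 tag worth 12.9 and 12.7, and a listed untreated peak could not be lower than 64.3 or 63.6. Of the 184 sites, 95 were lower than 64.3 after KLA. In the LXRβ library, of 11758634 tags, the lowest listed height was 8.2.

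The isolated sites had a median height of 61.3 (quartiles 56.6 and 75.5, range 51.9 to 99.0), from 11 to 21 tags each. Low values were the most frequent, with 73 sites at 11 or 12 tags. There were 36 sites at the lowest height and 37 isolated peaks 1 tag lower, at 47.2. At the upper limit there were 10 sites at 99.0 and 7 isolated peaks 1 tag higher, at 103.8. The median distance to the nearest other centre was 153905 bp (quartiles 117201 and 250103), against 3742 bp for peaks of the same height range with a neighbour. The site closest to the limit, chr13:83480433-83480565, had its neighbour 100032 bp away. The peak just outside it, chr5:91831856-91831988, had one at 99959 bp.

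Isolation at this scale did not mean absence of p65 from the wider region. Within 1 Mb to either side the sites had a median of 23.5 other peaks (range 0 to 120). For peaks of the same height range the median was 43 with any neighbour within 100 kb and 27 with 1 neighbour. For isolated peaks of other heights it was 18 (below 50) and 17.5 (100 or more). Of the 184 sites, the exceptions were 6 with no other peak within 1 Mb. The most remote, chr12:68160290-68160422, was 61.3 high, with neighbours 1864986 bp to the left and 2109183 bp to the right. The site chr9:26983871-26984003 (66.0) was 1665629 bp from its nearest neighbour, and chr6:11875829-11875961 (51.9) was 1296653 bp from its own. The first and second of these had no overlapping knockout KLA peak, while the third had one of 59.8. The nearest neighbour of an isolated site was usually the smaller peak, as it was lower than the site in 149 cases and taller in 31. The choice favours this order, since the sites were at least 50 high and the median of all wild type KLA peaks was 42.4.

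After KLA, most isolated sites were also listed in NCoR knockout macrophages. A total of 150 of the 184 sites (81.5%, 95% exact Clopper-Pearson interval 75.1 to 86.9) overlapped a knockout KLA peak by 1 bp or more. Over all 30006 wild type KLA peaks the share was 54.0%, but that list holds many lower peaks. Among the 7498 peaks of the same height range that had a neighbour it was 78.6% (77.6 to 79.5), and those with 1 neighbour gave 81.8% (77.0 to 86.0). Isolated peaks below 50 overlapped in 245 of 828 cases (29.6%, 26.5 to 32.8), and those of 100 or more in 45 of 48 cases (93.8%, 82.8 to 98.7). Where both lists had a peak, the wild type and knockout centres lay a median of 27.5 bp apart, and at most 136 bp.

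**Figure D1:**
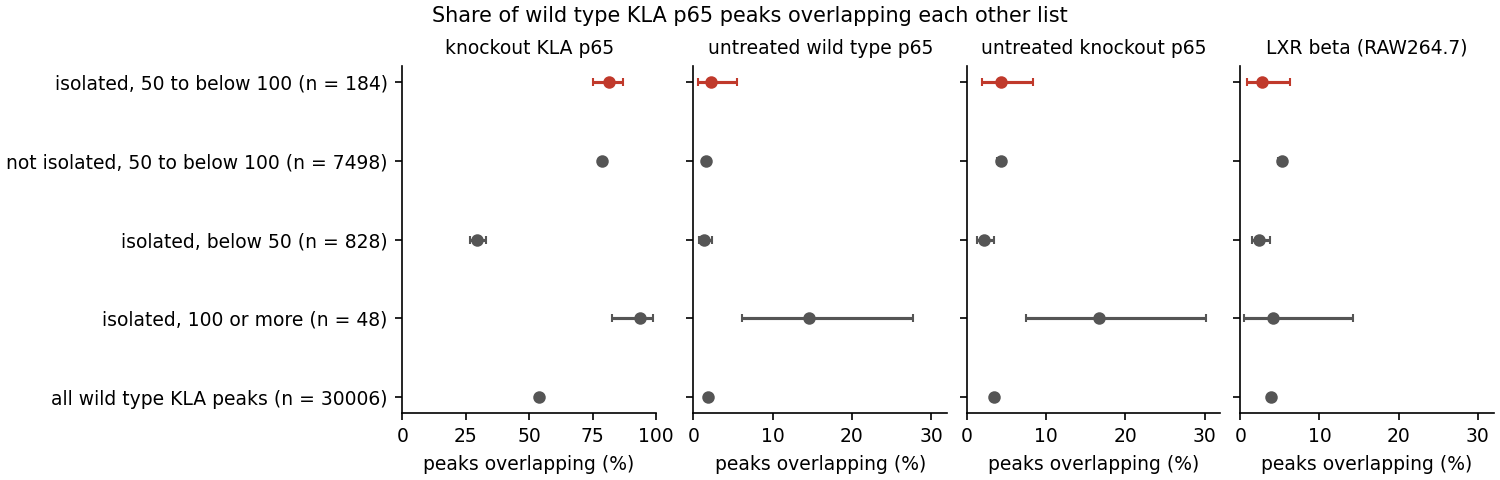
Share of wild type KLA p65 peaks (x axis, percent) that overlap each of the 4 other lists by 1 bp or more, for the isolated sites (red) and 4 other sets of peaks (grey), with 95% exact Clopper-Pearson intervals and the number of peaks in each set. The isolated sites of height 50 to below 100 sit at 81.5% for the knockout KLA list and at 2.17%, 4.35% and 2.72% for the others.

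Listing in the knockout varied with the number of wild type tags. Of sites with 11 or 12 tags, 50 of 73 (68.5%, 56.6 to 78.9) overlapped a knockout peak. With 13 to 15 tags it was 53 of 63 (84.1%, 72.7 to 92.1), and with 16 to 21 tags 47 of 48 (97.9%, 88.9 to 99.9). Peaks with a neighbour gave 68.2% (66.2 to 70.0), 77.8% (76.1 to 79.4) and 88.5% (87.3 to 89.7) at the same tag numbers. The intervals of isolated and neighboured peaks overlapped in each class, and the difference was not tested.

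**Figure D2:**
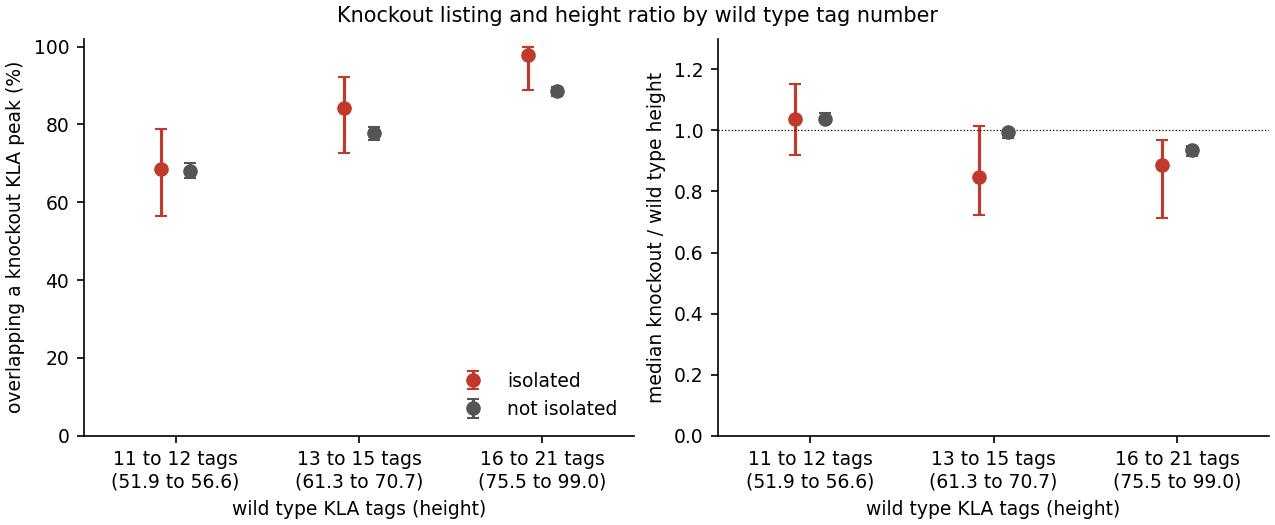
Left, share of wild type KLA peaks overlapping a knockout KLA peak (percent, 95% exact Clopper-Pearson intervals). Right, median knockout to wild type height ratio of the peaks listed in both (95% order-statistic intervals). Peaks are split by wild type tag number, for isolated sites (red) and peaks of the same height range with a neighbour (grey). The isolated share goes from 68.5% to 97.9% over the classes.

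A knockout height was available only for the 150 sites listed in both KLA libraries, and listing required at least 29.9, so the ratios below leave out sites with a lower knockout signal. At these 150 sites the knockout height had a median of 59.8 (quartiles 47.8 and 83.7, range 29.9 to 245.0). Of these, 86 were again between 50 and below 100, 52 were lower and 12 higher. The median ratio of knockout to wild type height was 0.925 (95% order-statistic interval 0.845 to 0.976), with quartiles of 0.724 and 1.18. For neighboured peaks of that height range the median was 0.976 (0.951 to 0.986), and for those with 1 neighbour 0.878 (0.815 to 0.921). Wild type heights entered the choice of sites and knockout heights did not, and knockout peaks were 144 bp wide against 132 bp. Per bp of peak the median was 0.848. The ratio was above 1 at 62 of the 150 sites, or 41.3%, against 57.8% of all 16203 shared KLA peaks, many of which were lower in wild type. In the same height range it was above 1 at 46.7% of shared peaks with a neighbour and 35.8% of those with 1 neighbour. Heights were not matched within that range. Counting peaks with and without a knockout peak, the median wild type height was 61.3 for isolated sites and 66.0 for each of these neighboured sets.

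Few sites differed by a factor of 2 between genotypes. The knockout height was at least 2 times the wild type height at 4 of the 150 sites (6.28% of all shared KLA peaks) and at most 0.5 times at 10 (2.43% of all), or 2.67% and 6.67% of the sites. In the same height range these shares were 2.07% and 3.60% for neighboured peaks, and 1.23% and 6.58% for those with 1 neighbour. The highest ratio, 2.47, was at chr18:67750175-67750307, with heights of 99.0 in wild type (95% Poisson interval 61.3 to 151) and 245.0 in knockout cells (176 to 332). The 2 peaks there, 132 and 144 bp wide, were centred 122 bp apart, so most of each lay outside the other. At chr6:140373937-140374069 the heights were 51.9 (25.9 to 92.8) and 125.5 (77.7 to 192). At chr17:4626271-4626403 they were 84.9 (50.3 to 134) and 203.2 (141 to 284). The remaining site of the 4, chr4:26274495-26274627, is remote from other p65 peaks, with its neighbour 1008472 bp away, and had 70.7 (39.6 to 117) and 155.4 (101 to 228). The intervals did not overlap for the sites on chromosomes 18 and 17, and they overlapped for the other pair.

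The lowest ratio, 0.363, was at chr11:59716034-59716166, which was 99.0 high in wild type and 35.9 (13.2 to 78.0) in knockout cells. At chrX:140669147-140669279 the heights were 80.2 and 29.9, and at chr1:183975400-183975532 they were 70.7 and 29.9. The knockout values of these sites rest on 5 or 6 tags, at or next to the threshold of 5, and their Poisson intervals overlapped those of the wild type heights. The 10 sites at the top height of 99.0 had knockout heights from 35.9 to 245.0. Among them, the knockout height was 59.8 at chr1:79891529-79891661, 131.5 at chr1:170292796-170292928, 83.7 at chr10:50482926-50483058 and 101.6 at chr13:24683768-24683900.

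**Figure D3:**
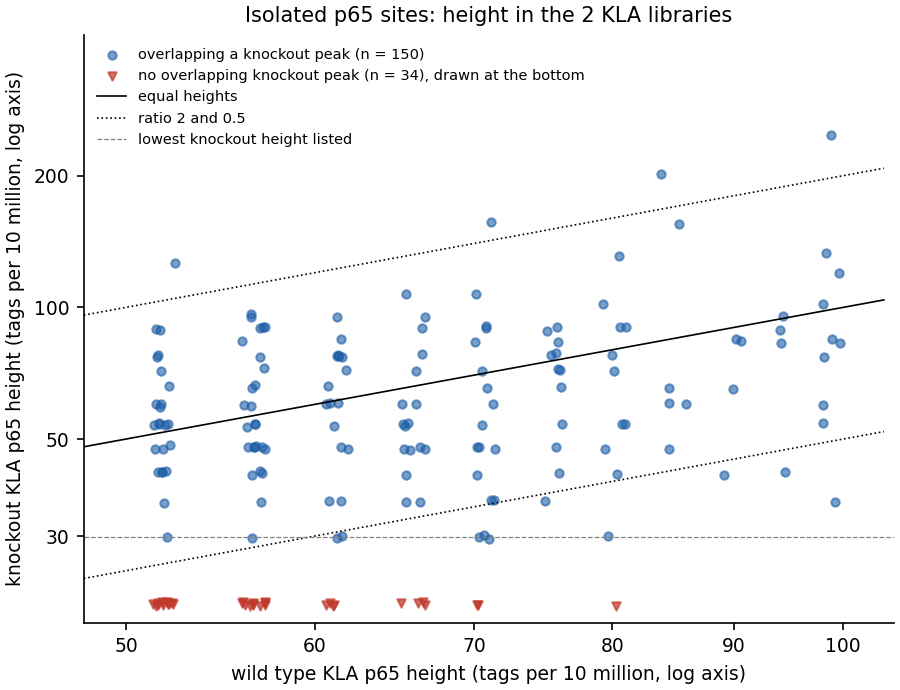
Height of the 184 isolated sites in the wild type (x axis) and knockout (y axis) KLA libraries, both log axes in tags per 10000000. Each point is 1 site, moved at random by at most 1.2% so that ties can be seen, and 34 sites without an overlapping knockout peak are triangles at the bottom. Points spread around the line of equal heights, with 4 at a ratio of 2 or more and 10 at 0.5 or less.

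A group of 34 sites overlapped no knockout KLA peak. They were lower than the rest, with a median wild type height of 56.6 against 66.0 for the 150 others, and 23 of them had 11 or 12 tags. A knockout peak was centred within 500 bp of 6 of them, so 156 of the 184 sites (84.8%) had a knockout centre in this range, against 59.9% of all wild type KLA peaks. For peaks of the same height range the share was 84.4% with any neighbour and 86.9% with 1 neighbour. The tallest of these 6, chr11:107179213-107179345, was 80.2 high, and the centre of a 47.8 knockout peak was 167 bp away. The other 28 had no knockout centre within 500 bp, and for 26 there was none within 100 kb. The tallest of the 28 were chrX:75043822-75043954 at 70.7 (39.6 to 117), and chr16:16870866-16870998 and chr2:44189709-44189841, both at 66.0 (36.1 to 111). An input, named for wild type cells, was used to filter the knockout list but not the wild type KLA list, so a site with high input could be in the wild type KLA list alone. At the 150 shared sites the knockout list gave at most 0.8 scaled input tags. No input value was given for unlisted sites, and the part of the input filter was not tested.

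The surroundings of the sites were sparse in the other libraries too. Those libraries played no part in the choice, but their lists share positions with the wild type KLA list. Of all knockout KLA peaks, 71.7% overlapped a wild type KLA peak, and a wild type KLA peak within 100 kb excluded a site. The choice therefore favours sparse surroundings in the other lists. Centres within 500 bp were left out here, so as not to count the site itself. A knockout KLA centre lay within 100 kb of 46 of the 184 sites (25%, 18.9 to 31.9), with at most 2 such centres per site, so 138 sites were isolated in both KLA lists. Over all wild type KLA peaks the share was 93.5%, and over peaks of the same height range with 1, 2 to 4 and 5 or more neighbours it was 70.0%, 93.1% and 99.9%. An LXRβ centre lay within 100 kb of 8 sites (4.35%, 1.90 to 8.39), against 40.6% of all wild type KLA peaks. For peaks with 1, 2 to 4 and 5 or more neighbours the LXRβ share was 13.8%, 21.8% and 52.4%. For the untreated knockout list the count was 11 sites (5.98%, 3.02 to 10.4), against 37.2% of all peaks, and for the untreated wild type list 1 site (0.543%, 0.0138 to 2.99), against 14.6%. Isolated peaks of other heights had sparse surroundings as well. Below 50 the shares were 22.3% (knockout KLA), 6.40% (LXRβ), 6.64% (untreated knockout) and 0.604% (untreated wild type). At 100 or more they were 31.25%, 2.08%, 10.4% and 2.08%. At 126 of the 184 sites there was no centre of any of the 4 lists in this range. The same count over all wild type KLA peaks was not made, so whether 126 is unusual cannot be told. Peaks of a cluster share their surroundings, so the intervals of the neighboured sets are too narrow, and the differences were not tested.

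**Figure D4:**
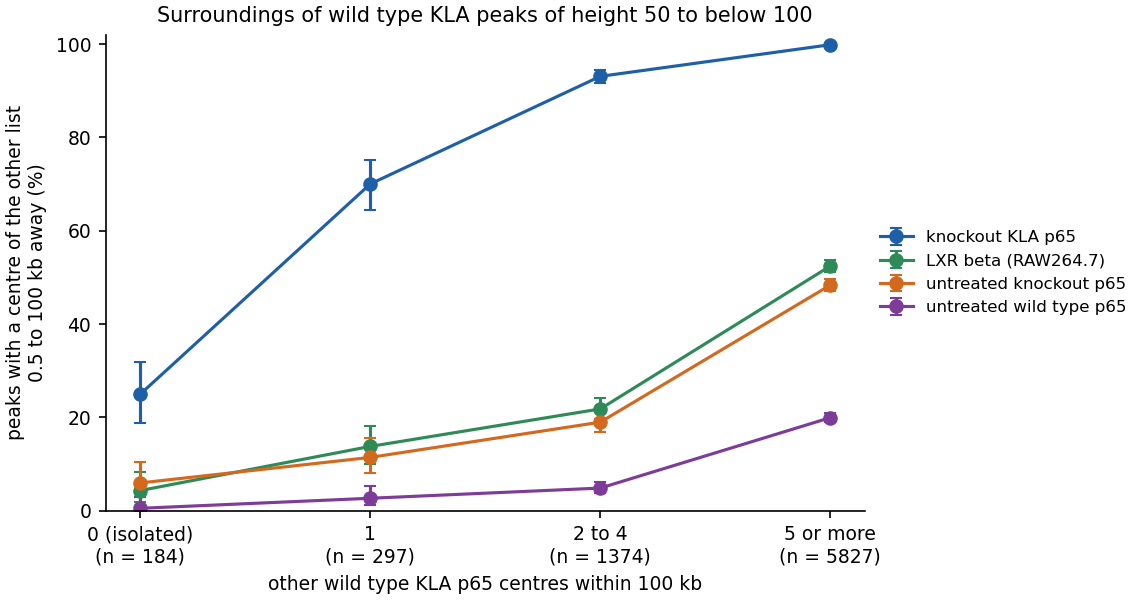
Share of wild type KLA p65 peaks of height 50 to below 100 (y axis, percent, 95% exact Clopper-Pearson intervals) that have a centre of another list within 100 kb but not within 500 bp, by the number of other wild type KLA centres within 100 kb (x axis). All 4 lines are lowest at the isolated sites, at 25% for knockout KLA p65 and 4.35% for LXRβ.

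Without KLA few of the sites were listed. Overlap with an untreated peak was found at 10 sites, against 4.5% of all wild type KLA peaks for either untreated list. The untreated wild type list held 4 of the 184 sites (2.17%, 0.595 to 5.47; 1.77% of all wild type KLA peaks) and the untreated knockout list 8 (4.35%, 1.90 to 8.39; 3.48% of all). For neighboured peaks of the same height range the shares were 1.64% (1.37 to 1.95) and 4.29% (3.85 to 4.78). Since the lowest listed untreated height exceeded the KLA height of many sites, absence from these lists says only that no peak passed the authors' thresholds.

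At sites listed both without and with KLA, the height was lower with it. The site with the tallest untreated wild type peak, chr11:25000111-25000243, had untreated heights of 347.4 (229 to 505) in wild type and 966.8 (762 to 1210) in knockout cells. After KLA the heights there were 84.9 (50.3 to 134) and 155.4 (101 to 228). At chr5:131995557-131995689 the untreated heights were 218.7 (127 to 350) and 419.8 (289 to 590). Those after KLA were 66.0 (36.1 to 111) and 107.6 (63.7 to 170). These were the 2 sites present in all 4 p65 lists, and both were lower after KLA in both genotypes. Both were also higher in the knockout than in the wild type library with and without KLA. The intervals of the 2 genotypes overlapped at both sites after KLA, and at the chromosome 5 site without it. Their next peaks were 698879 bp and 294838 bp away.

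At chr6:125826906-125827038 the untreated wild type height was 154.4 and the KLA height 61.3, while the knockout had 77.7 after KLA and an untreated peak of 648.8 centred 141 bp away. The last of the 4, chr8:108349575-108349707, had 64.3 (20.9 to 150) without and 56.6 (29.2 to 98.9) with KLA. The wild type intervals without and with KLA overlapped at both of these sites. So the untreated height was higher at all 4 sites in wild type cells, against 41.5% of the 532 wild type KLA peaks listed in both conditions. Among neighboured peaks of the same height range it was higher at 72 of 123 (58.5%), and at 2 of 4 with 1 neighbour. Isolated peaks of other heights gave 11 of 11 (below 50) and 6 of 7 (100 or more). Only untreated peaks of at least 64.3 could be listed and the sites were chosen below 100, so the choice favours this direction.

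In the knockout, the site of the tallest untreated peak, chr17:4626271-4626403, had 1743 (1463 to 2060) without KLA and 203.2 with it. Its wild type height was 84.9 after KLA, with an untreated wild type peak of 257.3 centred 179 bp away. The site chr3:5860599-5860731 had 343.5 (226 to 500) in untreated knockout cells, with 1.7 scaled input tags, and no knockout peak after KLA. Lower untreated knockout peaks were found at chr11:70973067-70973199 (101.8), chr3:86821806-86821938 (76.3), chrX:140669147-140669279 (63.6) and chr2:128769390-128769522 (63.6). The first 3 of these had knockout KLA heights of 89.6, 59.8 and 29.9, and the last had no knockout KLA peak. At those 3 the Poisson intervals of the untreated and KLA heights overlapped, and on X both heights rest on 5 tags. Thus at all 6 sites listed in both knockout conditions the untreated height was the higher, against 50.4% of the 790 wild type KLA peaks so listed. The count was 165 of 271 for neighboured peaks of the height range and 5 of 7 for those with 1 neighbour. It was 12 of 12 for isolated peaks below 50 and 6 of 8 for those of 100 or more. Untreated knockout peaks below 63.6 could not be listed, so here too the lower sites could enter only with a tall untreated peak.

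Overlap with LXRβ was infrequent. An LXRβ peak of RAW264.7 cells overlapped 5 of the 184 sites (2.72%, 0.888 to 6.23), against 3.87% of all wild type KLA peaks and 5.27% (4.77 to 5.80) of neighboured peaks in the height range. The interval of the isolated sites contains both values. By neighbours, the share was 3.37% (1.63 to 6.10) with 1, 3.42% (2.52 to 4.52) with 2 to 4 and 5.80% (5.21 to 6.43) with 5 or more. The tallest was 35.5 (25.2 to 48.5) at chr3:5860599-5860731, the site of the untreated knockout peak of 343.5 named above, with 11 scaled input tags in the LXRβ list. The next, at chr6:125826906-125827038, was 21.8 (14.0 to 32.5). It was 13.7 at chr17:51133111-51133243, where the KLA heights of p65 were 80.2 (wild type) and 101.6 (knockout). It was 10.0 at chr11:107179213-107179345 and at chr14:71503929-71504061, close to the lowest listed height of 8.2. On chromosome 14 the corresponding p65 heights were 70.7 and 35.9. A further pair of sites, chr16:16870866-16870998 and chr17:4626271-4626403, had LXRβ centres 128 bp and 159 bp away, of 10.9 and 12.7. The lists come from different cells, so these are shared positions, not binding in the same cell.

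**Figure D5:**
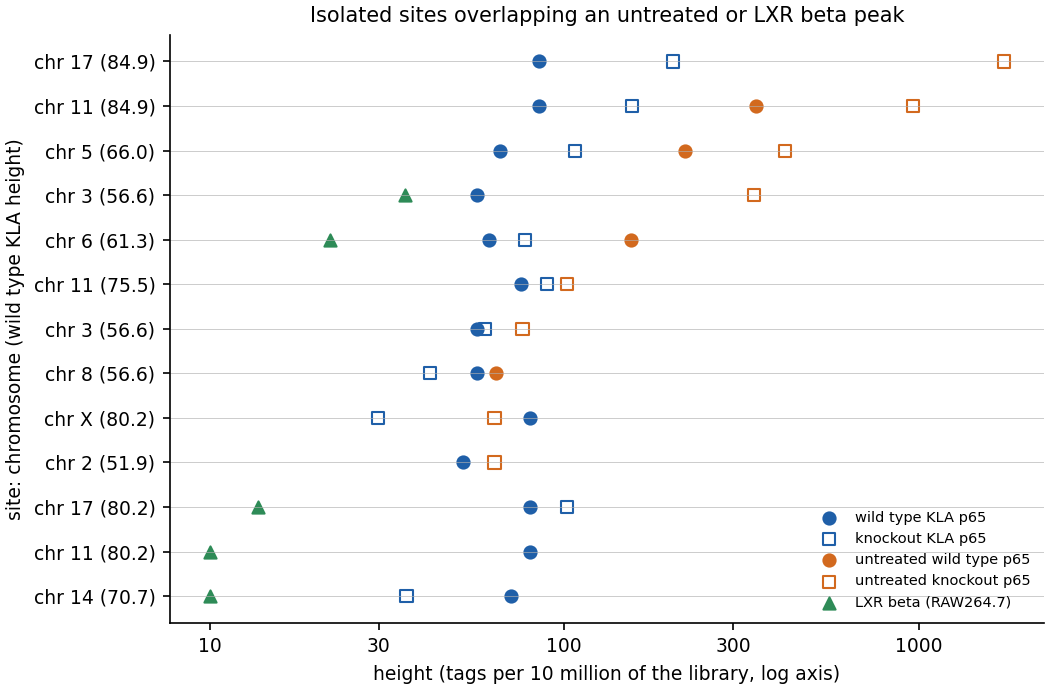
Heights (x axis, log, tags per 10000000) of the 13 isolated sites that overlap an untreated p65 or an LXRβ peak, 1 row per site, named by chromosome and wild type KLA height. A symbol is drawn only where a list has an overlapping peak, and every untreated symbol lies to the right of the KLA symbol of its own genotype where both are drawn.

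By list membership, 140 of the 184 sites were shared with the knockout KLA list alone, a count not made over all peaks. A further 31 were shared with no other list (43.9% of all wild type KLA peaks), and none with all 4. The sites lay on all 19 autosomes and X. Their share of a chromosome's peaks was highest on X (6 of 528, 1.14%, 0.418 to 2.46) and chromosome 14 (12 of 1116, 1.08%, 0.557 to 1.87). It was lowest on chromosome 19 (2 of 1008, 0.198%, 0.0240 to 0.715) and chromosome 7 (4 of 1764, 0.227%, 0.0618 to 0.580). On X 3 of the 6 sites overlapped a knockout KLA peak.

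The focus ratio, a fraction from the authors' peak caller that is higher where tags on each strand lie on the proper side of the centre, had a median of 0.800 (quartiles 0.736 and 0.852), against 0.769 for neighboured peaks of the height range and 0.758 for all. It was also 0.800 for peaks of that range with 1 neighbour, and 0.813 for isolated peaks of 100 or more. It was 0.786 at sites without and 0.800 at sites with an overlapping knockout peak. The authors' fold over the surrounding 10000 bp had a median of 59.8, against 28.6 for neighboured peaks of the height range and 49.8 for those with 1 neighbour. For isolated peaks of other heights it was 35.7 (below 50) and 79.0 (100 or more). This ratio moves with spacing, which was part of the choice. Among the isolated sites, the median genotype ratio rose with distance to the neighbour, but its intervals were not computed and the order was not tested. Sites with a neighbour at 100 to 150 kb had a median knockout to wild type ratio of 0.845 (73 shared sites), those at 150 to 250 kb had 0.906 (43), and those farther than 250 kb had 1.18 (34). The median wild type heights of these sets were 66.0, 61.3 and 56.6, and the part of height in this order was not tested. Listing in the knockout, needed for a ratio, was lowest in the farthest set, at 73.9% (58.9 to 85.7), against 84.9% (75.5 to 91.7) in the nearest. These 2 intervals overlapped. At 11 or 12 tags the median ratio was 1.04 (0.921 to 1.15) for isolated and 1.04 (1.04 to 1.06) for neighboured peaks. At 13 to 15 tags it was 0.846 (0.724 to 1.01) for isolated and 0.995 (0.976 to 0.995) for neighboured peaks. At 16 to 21 tags it was 0.888 (0.713 to 0.969) and 0.934 (0.915 to 0.950). The intervals overlapped in each class, and the difference was not tested. Across peaks of the height range with 5 or more, 2 to 4 and 1 neighbour, the median ratio fell, from 0.986 to 0.934 and 0.878.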

How the data were processed

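The members and lists were chosen with earlier results of these data known. Of 23 samples, 5 peak lists were used, and the other samples were not analysed here. Bowtie 0.12.7, HOMER and the build mm9 are named per the submitters' processing notes. Peaks were called per library at a false discovery rate of 0.001 and 4-fold over the surrounding 10000 bp, with 1 tag counted per bp at most, per the file headers. The wild type KLA list had no input, and the others required 4-fold over input, per the file headers. Genome size was set to 2000000000 in the wild type KLA list and in the LXRβ list, and to 4000000000 in the rest, per the file headers.

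The deposited normalized tag count is a signal in tags per 10000000 (in the LXRβ list 1 tag was worth 0.910, where the header's total gives 0.850). The deposited score of findPeaks is in tags and was above the tags behind the height at 94 of the 184 sites. The focus ratio is the authors' fraction, and the fold over local signal the authors' ratio. The deposited p-values were not used.

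Centres are midpoints of peaks. Overlap of 1 bp or more, nearest centres, exact Clopper-Pearson, Poisson and order-statistic intervals (95%) were computed in Python 3.11.15 with scipy 1.17.1, pandas 2.3.3 and numpy 2.4.6, and the code was tested on simulated lists. No test between groups was possible with 1 library each. Tags are not independent molecules, so intervals cover counting error only. Sites named were the 5 tallest (ties by chromosome and start), the 3 most remote, the 3 highest and 3 lowest ratios, the 3 tallest without a knockout centre within 500 bp, the 3 tallest in each untreated and the LXRβ list, and those at the limits of the choice. The fourth site of ratio 2 or more, the tallest site with a knockout centre nearby but no overlap, the sites with an LXRβ centre nearby and the remaining sites listed untreated or with LXRβ were named after their values were seen. Alternatives changed the overlap, the distance, the height range, the lists and the scaling.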

Additional observations from a re-analysis of the deposited data

How the results depend on the processing

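The number of sites depended on the choice of limits. It was 471 with no other centre within 50000 bp, 62 within 200000 bp, 433 where only neighbours at or above the lowest knockout KLA height counted, and 48 at heights from 75 to below 100. The share overlapping a knockout KLA peak was 75% with centres at most 100 bp apart, 68.5% with a reciprocal overlap of 50%, 97.9% at heights from 75 and 53.3% with the taller 50% of the knockout list. With the rule applied to the knockout list, an alternative chosen after seeing the data, 89.3% were found in the wild type list. The median height ratio was 1.08 (95% interval 0.878 to 1.27) with no other centre within 200000 bp, on the other side of 1, and the cause was not tested. The 3 shares in the untreated and LXRβ lists stayed within the intervals of the reported values under all 13 alternatives each. Among these, the removal of peaks with scaled input at least 1 tag above the lowest of their list was added after seeing the data. A wild type height taken from the score was also added then. The 3 shares moved by over 1.5 times in places. The untreated wild type share was 4.84% with no other centre within 200000 bp, and the untreated knockout share 8.33% at heights from 75. The LXRβ share was 1.63% without the peaks of higher input or with the taller 50% of its list, and 4.17% at heights from 75. The LXRβ peaks at the sites had from 1.4 to 11 scaled input tags, so none was free of input. No paired analysis was possible because each group is 1 library. Depth limits what can be listed, at 5 tags in the p65 lists and 9 in the LXRβ list.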

Other observations

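The same limits applied to the knockout KLA list, a set chosen after seeing the data, gave 300 isolated peaks of height 50 to below 100, from 9 to 16 tags each. Of these, 268 had an overlapping peak in the wild type KLA list (89.3%, exact 95% interval 85.3 to 92.6). The share was 84.6% (83.7 to 85.4) for the 7202 knockout peaks in that height range with a neighbour and 71.7% for all knockout KLA peaks. The 268 isolated peaks had a median wild type to knockout height ratio of 0.789 (0.789 to 0.868). Of the 184 sites chosen in the wild type list, the 150 with an overlapping knockout peak had a median knockout to wild type ratio of 0.925. So in both directions shared peaks were, by the median ratio, lower in the library that was not used for the choice. A total of 57 peaks, out of these 300 and of the 184 sites, were in both sets.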
